A study of Mus musculus with 14 samples.

Results

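The genes described here are 10 subunits of the SWI/SNF (BAF) chromatin remodelling complexes: Arid1a, Arid1b, Arid2, Smarca2, Smarca4, Smarcb1, Smarcc1, Smarcc2, Smarcd1 and Pbrm1. They were taken by gene symbol from tables of exome variants in mouse mammary tumours, and all 10 were found among the 21292 protein-coding gene symbols listed. SWI/SNF complexes use the energy of ATP to slide or evict nucleosomes, which opens promoters and enhancers to transcription factors. One of a pair of alternative ATPases, Smarca4 (BRG1) or Smarca2 (BRM), drives each complex, and Smarcb1, Smarcc1, Smarcc2 and Smarcd1 belong to its core. Arid1a and Arid1b are alternative large subunits of the canonical BAF form, whereas Arid2 and Pbrm1 mark the PBAF form. Several of these genes, ARID1A above all, are recurrently inactivated in human cancers, in breast tumours among others.

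The exomes of 12 end-point tumours, in 4 groups of 3, were sequenced. Every tumour grew from a Balb/c p53null mammary fragment taken from a syngeneic donor aged 8 to 10 weeks and was collected at a diameter of at most 2 cm, so loss of p53 is shared by all groups, controls included. In the gel experiment, the fragment was placed in the cleared mammary fat pad of a wild-type female aged 3 to 4 weeks together with a type I collagen and basement membrane gel. The collagen had been kept for 10 to 14 days in 0.1% acetic acid alone (soft, not crosslinked: tumours A1, A2 and A3) or with 500 mM L-ribose added (stiff, crosslinked: A7, A8 and A9), and basement membrane extract was at 20%. In the host experiment, the fragment was placed in the fat pad of LysM-Cre GPX4 mice that were wild type (WT hosts: B1, B2 and B3) or knockout (KO hosts: B4, B5 and B6). LysM-Cre is active in myeloid cells, so GPX4, an enzyme that detoxifies lipid peroxides, was targeted in cells of the host and not in the implanted fragment. The labels give no gel and no recipient age for this experiment. A pair of wild-type tail samples was not analysed here. The study set out to relate tissue tension and oxidative stress to DNA damage.

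The value for a gene is the number of variants listed for it in a tumour, as deposited by the authors from snpEff, a program that predicts the effect of each variant. HIGH impact covers changes such as a frameshift or a lost splice site, MODERATE covers missense changes and in-frame insertions or deletions, LOW covers mostly synonymous changes, and MODIFIER covers intronic, untranslated and flanking positions. Protein-altering variants are HIGH plus MODERATE. The tables hold no position, allele fraction or read depth, and the depth at which each gene was read is therefore unknown. Without positions, a count added over tumours can hold the same site more than once. Whether inherited differences from the reference were removed is not given in the sources used here, and the counts were not divided by coding length. Tests therefore compare tumours only. Where counts of different genes are set side by side, they are listed counts, not corrected for coding length, depth or inherited variants. Nothing in the labels says that the 3 tumours of a group came from separate cohorts, so the p-values reflect only how these particular tumours vary.

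Over all protein-coding genes, a tumour held between 8316 (B5) and 16536 (B1) protein-altering variants and between 334408 (B5) and 695281 (B1) MODIFIER variants. All 3 WT host tumours had at least 12598 protein-altering variants (B3), and the KO host tumour B6 lay in their range with 14820. In the host experiment the members' summed counts followed these totals only in part. B6, for example, held 14 protein-altering variants of the members and B3 held 17. The part of the totals in the results below was not tested beyond the scaled fits given beside them.

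Arid1a, the DNA-binding subunit of canonical BAF (Ensembl ENSMUSG00000007880), carried most of the protein-altering variants of the set. It had 10, 12 and 9 in the soft tumours, 8, 10 and 13 in the stiff tumours, 20, 30 and 15 in the WT hosts, and 8, 7 and 11 in the KO hosts. The 3 WT host tumours were the 3 highest of the 12, and the other 9 tumours lay between 7 and 13. The share of all genes with this ranking was not counted. Totals over all genes were also high in B1 (16536), B2 (14024) and B3 (12598), as in B6 (14820). Arid1a held between 69.2% (A3) and 95.2% (B1) of the members' protein-altering variants in a tumour. It was 1 of 1593 genes with a protein-altering variant in all 12 tumours, which is 7.48% of all protein-coding genes. It was the sole member of the 10 in that class.

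By effect type, Arid1a had a frameshift, a missense change, an in-frame deletion and a synonymous change in each of the 12 tumours. Every HIGH-impact variant of Arid1a was a frameshift. No gained stop codon and no lost splice site was listed for its protein-coding transcripts in these 12 tumours. Frameshifts numbered 2, 2 and 2 in the soft tumours, 2, 3 and 2 in the stiff tumours, 5, 7 and 3 in the WT hosts, and 1, 1 and 4 in the KO hosts. The WT and KO hosts thus overlap in frameshifts, because B6 (4) lies above B3 (3). Missense changes numbered 6, 9 and 5 in the soft tumours, 4, 5 and 8 in the stiff tumours, 14, 21 and 10 in the WT hosts, and 5 in each of the 3 KO hosts. The missense counts of the WT hosts lay above those of all 9 other tumours. How many of all genes show this in missense changes was not counted.

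In-frame insertions and deletions stayed between 1 and 3 in every tumour, with 22 in all, of which 21 were deletions of the disruptive type, which also alter a flanking codon. They showed no split between the hosts (1, 2 and 2 in WT, 2, 1 and 2 in KO). Synonymous changes, which leave the protein as it is, numbered 3, 6 and 5 in the soft tumours, 4, 3 and 8 in the stiff tumours, 7, 15 and 5 in the WT hosts, and 6, 4 and 7 in the KO hosts. B2 was the highest tumour in frameshifts, missense and synonymous changes alike. B1 and B3 overlapped the KO hosts in synonymous changes.

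**Figure D1:**
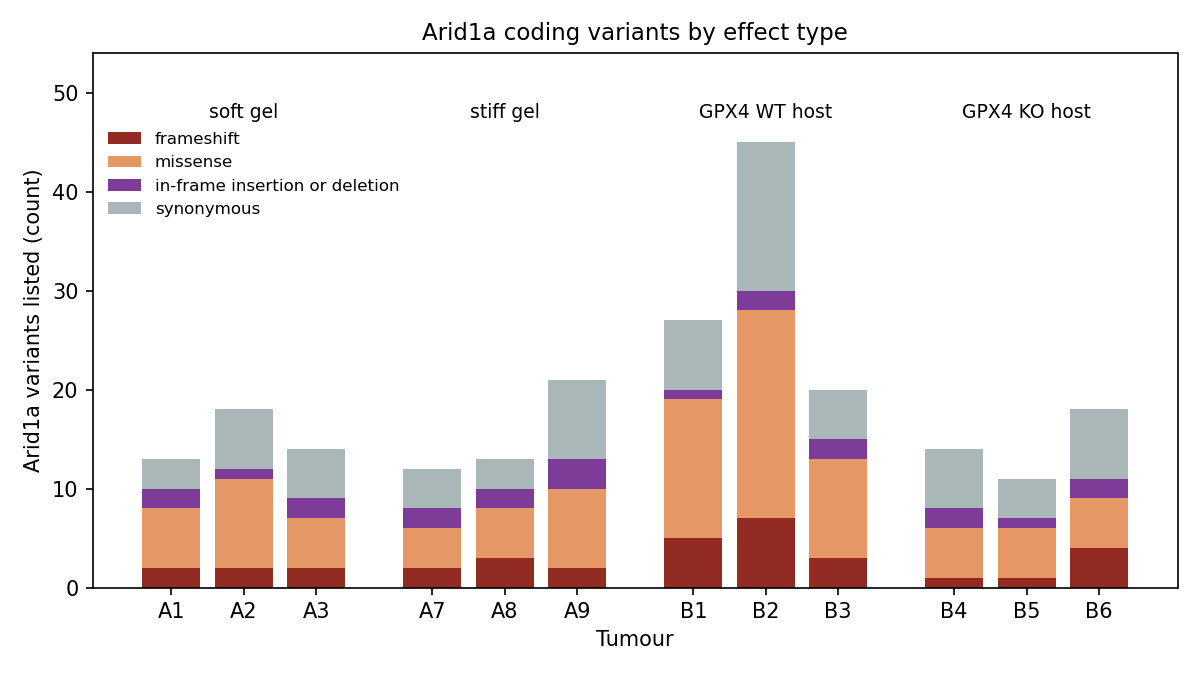
Stacked bars give the number of Arid1a variants listed in each of the 12 tumours, split into frameshift, missense, in-frame insertion or deletion, and synonymous changes. B2 is the tallest bar with 7 frameshifts, 21 missense and 15 synonymous changes, whereas the KO hosts each hold 5 missense changes.

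The make-up of the Arid1a variants was set against that of all protein-coding genes. Pooled over the 12 tumours, Arid1a had 1.33 missense changes per synonymous change, and all genes had 1.28. It had 35.1 frameshifts per 100 missense changes, and all genes had 28.2. Per tumour the Arid1a ratio of missense to synonymous changes ran from 0.714 (B6) to 2.00 (A1, B1 and B3), while the ratio over all genes ran from 1.21 to 1.31. Frameshifts per 100 missense changes ran from 20 (B4 and B5) to 80 (B6) in Arid1a and from 19.9 to 30.8 over all genes. With 73 synonymous Arid1a changes summed over the 12 tumours, in which the same site can recur, these ratios are given without a test. A frameshift in every tumour was listed for 440 genes, 2.07% of the total, and a frameshift together with a missense change in every tumour for 282 genes, 1.32%.

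Most Arid1a variants lay outside the coding sequence. MODIFIER variants numbered 127, 146 and 153 in the soft tumours, 138, 124 and 112 in the stiff tumours, 260, 229 and 219 in the WT hosts, and 152, 114 and 193 in the KO hosts. The bulk was intronic, from 99 (A9) to 233 (B1) per tumour. The WT hosts were again the 3 highest tumours, and B6 came next with 193. Here too the share of all genes with this ranking was not counted. Arid1a has 4 protein-coding transcripts in these tables. A pair of them, ENSMUST00000105897 and ENSMUST00000145664, each held all 153 protein-altering variants, ENSMUST00000008024 held 138, and ENSMUST00000139709 held 5. ENSMUST00000008024 had 15 in B1 and 23 in B2, where the fuller pair had 20 and 30.

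For the ATPases, few protein-altering variants were listed. Smarca4, the ATPase found in both BAF and PBAF, had 1 in each of A2, A3, A9 and B5 and 0 in the other 8 tumours. The one in A3 was a frameshift and the other 3 were missense. Smarca2, its alternative, had 1, 1 and 2 in the soft tumours, 0 in each stiff tumour, 2 in B2, 2 in B6 and 0 in the remaining host tumours, and all 8 of these were missense. Smarca2 and Smarca4 carried a protein-altering variant together in A2 and A3, both soft tumours.

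Among the core subunits, Smarcb1, the subunit lost in rhabdoid tumours, had no protein-altering variant in any of the 12 tumours and 1 synonymous change, in A1. Smarcc1, a scaffold subunit, had 1, a splice acceptor change in B5. Smarcc2, its close relative, had 1, a missense change in A9. Smarcd1, an accessory subunit that links the complex to transcription factors, had 2 in B3, 0 in A9 and B6, and 1 in each of the other 9 tumours. Of its 11 protein-altering variants, 10 were missense and 1 was an in-frame insertion in B4.

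Arid1b, the alternative to Arid1a, had 1 missense change in A2 and 1 in B6. The PBAF subunits Arid2 and Pbrm1 (Pbrm1 reads acetylated histones through its bromodomains) had no protein-altering variant in any tumour. Pbrm1 had 1 synonymous change, in A9. In all, 7 of the 10 members had at least 1 protein-altering variant in some tumour and 3 had none, against 11826 of the 21292 genes that had at least 1. HIGH-impact variants outside Arid1a were limited to the Smarca4 frameshift in A3 and the Smarcc1 splice acceptor change in B5.

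**Figure D2:**
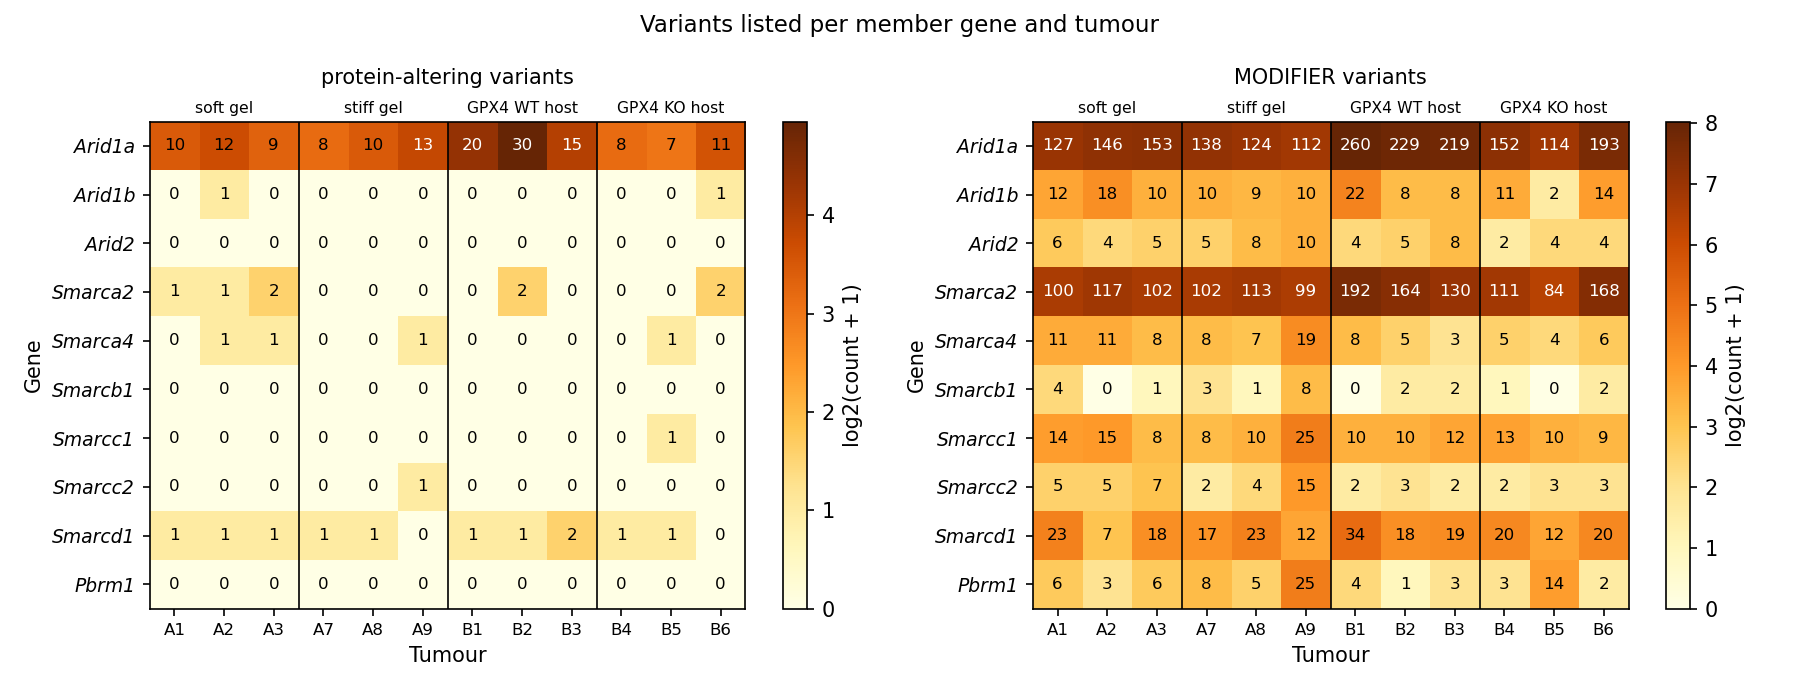
Each cell gives the number of protein-altering (left) or MODIFIER (right) variants of a member gene (rows) in a tumour (columns), coloured by log2(count + 1). On the left Arid1a alone is above 0 in all 12 tumours, and on the right A9 stands out in Smarcc1 (25), Smarcc2 (15) and Pbrm1 (25).

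Stiff and soft gels were compared first, which asks whether collagen crosslinking moved variant counts. Arid1a had the same mean in both, with an SD of 2.5 around 10.3 protein-altering variants for the 3 stiff tumours and an SD of 1.5 around 10.3 for the 3 soft ones, a log2 fold change of 0 in edgeR's quasi-likelihood test. Of the 10 members, 4 had the summed count of at least 3 needed for the test (Arid1a, Smarca2, Smarca4 and Smarcd1). None of the 4 passed an adjusted p of 0.05, and no gene of the 4311 tested did (0%, with DESeq2 also calling 0).

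Smarca2 was the one of these 4 whose groups did not overlap, with 1 or 2 variants in every soft tumour and 0 in every stiff tumour. Its edgeR p was 0.0185 before adjustment and 1 after it. Over all genes tested, 3.87% had groups that did not overlap and 106 genes, 2.46%, had an unadjusted p under 0.05 beside 1 of the 4 members in each case. No fold is given, because one group was at 0 throughout.

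The members' summed protein-altering counts were 12, 16 and 13 in the soft and 9, 11 and 15 in the stiff tumours. The means were 13.7 ± 2.1 (SD, n = 3) and 11.7 ± 3.1 (SD, n = 3), and the difference of -2 was smaller than the spread within the stiff group. Without Arid1a the sums were 3.33 ± 1.15 in soft and 1.33 ± 0.58 in stiff tumours (SD, n = 3 each), which again is a difference of -2, so it lay in the other members and chiefly in Smarca2.

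In MODIFIER variants all 10 members could be tested between stiff and soft gels, and none passed (0% of 19505 genes passed in edgeR, whereas DESeq2 called 53). No member reached an unadjusted p under 0.05, against 1596 of all genes (8.18%), and no member's groups failed to overlap, against 9.86% of all genes. The members' median log2 fold change was 0.20, with 7 of 10 above 0, beside a median of -0.16 over all genes. With A9 left out, 5 members lay above 0 and 5 below, beside a median of -0.25 over all genes. Pbrm1 had the widest difference, with 6, 3 and 6 in soft and 8, 5 and 25 in stiff tumours. Its log2 fold change was 1.32 ± 0.67 (SE; edgeR adjusted p = 0.654). Without A9 the log2 fold change was 0.37.

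Scaling each tumour to its total moved the median of all genes from -0.16 to 0.05 in this comparison, from -0.30 to 0.06 between KO and WT hosts, and from 0.20 to -0.23 between host and gel tumours. A log2 fold change of a member in MODIFIER variants is therefore given beside the median of all genes. That median mixes genes with small and large summed counts, which differed in their highest tumours, as described below for A9. The direction of Arid1a between stiff and soft gels (-0.19 ± 0.14, SE; edgeR adjusted p = 0.769) turned to 0.02 with that scaling.

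The KO and WT hosts were compared next, which asks whether loss of GPX4 in the host's myeloid cells moved variant counts. Arid1a averaged 8.67 ± 2.08 protein-altering variants (SD, n = 3) in the KO hosts and 21.7 ± 7.6 (SD, n = 3) in the WT hosts. Every KO value (7, 8 and 11) lay below every WT value (15, 20 and 30). The log2 fold change was -1.31 ± 0.35 (SE), with a p of 0.0139 before and 1 after Benjamini-Hochberg adjustment in edgeR's quasi-likelihood test, so the difference did not pass across all genes. Leaving out 1 tumour at a time gave values between -1.51 and -1.003, the latter without B2.

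Of the 5308 genes tested in that comparison, 0% passed the adjusted threshold in edgeR and DESeq2 called 0. An unadjusted p under 0.05 was found for 199 genes, 3.75%, and 4.99% had groups that did not overlap. Arid1a met both, as 1 of the 3 members that could be tested. Unscaled, the Arid1a log2 fold change of -1.31 stood beside a median of -0.31 over all genes tested. Scaled to each tumour's total, it was -0.97 beside a median of 0.0044. Per 10000 protein-altering variants of the tumour, Arid1a had 12.1 (B1), 21.4 (B2) and 11.9 (B3) in the WT hosts and 7.37 (B4), 8.42 (B5) and 7.42 (B6) in the KO hosts, so the hosts did not overlap on this scale either. The stiff tumour A9, at 14.5, lay above B1 and B3 here.

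By effect type, Arid1a missense changes averaged 15.0 ± 5.6 in the WT hosts and 5 in each KO host, a difference of -10.0 (two-sided exact permutation test, p = 0.1, the smallest that 3 tumours against 3 allow). The frameshift difference was -3.00 (exact permutation p = 0.2) and the synonymous difference was -3.33 (exact permutation p = 0.5). In-frame changes had the same mean of 1.67 in both groups. Intronic variants averaged 211 ± 20 in the WT and 142 ± 30 in the KO hosts (SD, n = 3 each; exact permutation p = 0.1). Over the 15 such tests of Arid1a, 5 effect types in each of 3 comparisons, every adjusted p of these exact permutation tests was 0.195 or more.

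Only Smarca2 and Smarcd1 among the other members could be tested between the hosts in protein-altering variants. Smarca2 had equal totals in the hosts, with 2 in B2 and 2 in B6, and Smarcd1 averaged 0.667 ± 0.577 in KO and 1.33 ± 0.58 in WT hosts (SD, n = 3 each; edgeR adjusted p = 1). The members' summed protein-altering counts were 21, 33 and 17 in the WT and 9, 10 and 14 in the KO hosts, a difference of -12.7 between means of 23.7 ± 8.3 and 11 ± 2.6 (SD, n = 3 each). Without Arid1a the sums were 2.00 ± 1.00 in WT and 2.33 ± 1.15 in KO hosts, a difference of 0.333. The summed difference between the hosts was thus carried by Arid1a.

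Arid1a was also the one member whose MODIFIER counts did not overlap between the hosts, at 153 ± 40 in the KO and 236 ± 21 in the WT hosts (SD, n = 3 each). The log2 fold change was -0.62 ± 0.26 (SE) and was -0.25 with scaling to the totals. In the edgeR quasi-likelihood fit across all genes its adjusted p was 0.858. Of 19312 genes tested, 0% passed in edgeR and 19 were called by DESeq2, no member among them. An unadjusted p under 0.05 was found for 891 genes, 4.61%, and 7.84% had groups that did not overlap. The members' median was -0.40 beside -0.30 over all genes, with 7 of 10 below 0.

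Pbrm1 lay above 0 between the hosts, with 4, 1 and 3 in the WT and 3, 14 and 2 in the KO hosts (log2 fold change 1.21 ± 0.86, SE; edgeR adjusted p = 0.861). That value came from B5, and without B5 it was -0.09. Smarca2, the member with the second most MODIFIER variants, had 192, 164 and 130 in the WT and 111, 84 and 168 in the KO hosts. These overlap, since B6 exceeded B2 and B3, and the log2 fold change was -0.42 ± 0.32 (SE; edgeR adjusted p = 0.861).

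The genes next to Arid1a on its chromosome were examined for the same split, as the 5 protein-coding genes on each side in the gene order of GRCm38.p6, a choice made after the Arid1a counts were known. In MODIFIER variants 9 of the 10 neighbours had a log2 fold change below 0 between KO and WT hosts, with a median of -0.36, beside 13320 of 19312 genes below 0 and a median of -0.30 over all genes tested. A pair of them, Rps6ka1, a protein kinase of the MAPK pathway, and Lin28a, a repressor of let-7 maturation, had groups that did not overlap, as did 7.84% of all genes. Lin28a had 88, 66 and 40 in the WT and 33, 17 and 38 in the KO hosts. Its log2 fold change was -1.14 (edgeR adjusted p = 0.858). Sfn, which encodes 14-3-3 sigma, was the exception at 0.21.

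The 6 host tumours were then set against the 6 gel tumours. These experiments differed in the host animals, and the labels name a gel for the gel experiment only. Such differences cannot be told apart from any difference in handling or sequencing run. In protein-altering variants, Arid1a averaged 15.2 ± 8.7 in host and 10.3 ± 1.9 in gel tumours (SD, n = 6 each; log2 fold change 0.40 ± 0.23, SE; edgeR adjusted p = 0.652). The KO hosts (7 to 11) lay within or below the range of the gel tumours (8 to 13), and the WT hosts lay above it. No gene of 6829 passed (0% in edgeR, 5 genes in DESeq2). No tested member reached an unadjusted p under 0.05 (413 genes, 6.05%) or had groups that did not overlap (0.205% of genes). The members' summed counts averaged 17.3 ± 8.9 in host and 12.7 ± 2.6 in gel tumours (SD, n = 6 each), a difference of 4.67.

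In MODIFIER variants, 1156 of 20737 genes (5.57%) passed between host and gel tumours, 1094 of them higher in the hosts, and no member was among them. Scaled to the totals, 724 genes passed, 463 of them higher in the hosts. The count moved with some single tumours. It was 185 without A1, 350 without A3, 510 without A8, 114 without A9 and 248 without B1. It was 612 without B2, 520 without B6 and 2616 without B5. Less change came without A2 (983), A7 (958), B3 (1210) or B4 (843). Without both A9 and B5 the count was 1809. No member's groups failed to overlap (0.747% of all genes). An unadjusted p under 0.05 was reached by 4 of the 10 members (Arid1a, Smarca2, Smarca4 and Smarcc2), against 21.9% of all genes.

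Arid1a came nearest the threshold among the members, at 194.5 ± 53.6 in host and 133 ± 15 in gel tumours (SD, n = 6 each). Its log2 fold change was 0.51 ± 0.15 (SE; edgeR adjusted p = 0.0555), and the adjusted p ranged from 0.00822 without B5 to 0.682 with scaling to the totals. DESeq2 gave 0.0168. Smarca2 averaged 141.5 ± 40.3 in host and 105.5 ± 7.6 in gel tumours (log2 fold change 0.41 ± 0.17, SE; edgeR adjusted p = 0.184), and the value was -0.05 with scaling to the totals. With the median over transcripts in place of the maximum the Smarca2 value was 1.34 with an edgeR adjusted p of 0.0336, and without B5 it was 0.51 with an edgeR adjusted p of 0.0407.

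The other tested members mostly lay on the opposite side, with 7 of 10 log2 fold changes below 0 and a members' median of -0.41 beside 0.20 over all genes. The number below 0 was 9 with scaling to the totals, 6 without A9 and 5 without both A9 and B5. Smarca4 had 11, 11, 8, 8, 7 and 19 in the gel tumours and 8, 5, 3, 5, 4 and 6 in the host tumours. Its log2 fold change was -1.03 ± 0.35 (SE; edgeR adjusted p = 0.102). Scaled to the totals it was -1.49 with an edgeR adjusted p of 0.0251, with TMM it was -1.30 with an edgeR adjusted p of 0.0324, and without A9 it was -0.73. Smarcc2 had 5, 5, 7, 2, 4 and 15 in the gel and 2, 3, 2, 2, 3 and 3 in the host tumours (log2 fold change -1.29 ± 0.49, SE; edgeR adjusted p = 0.134), and -0.70 without A9.

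**Figure D3:**
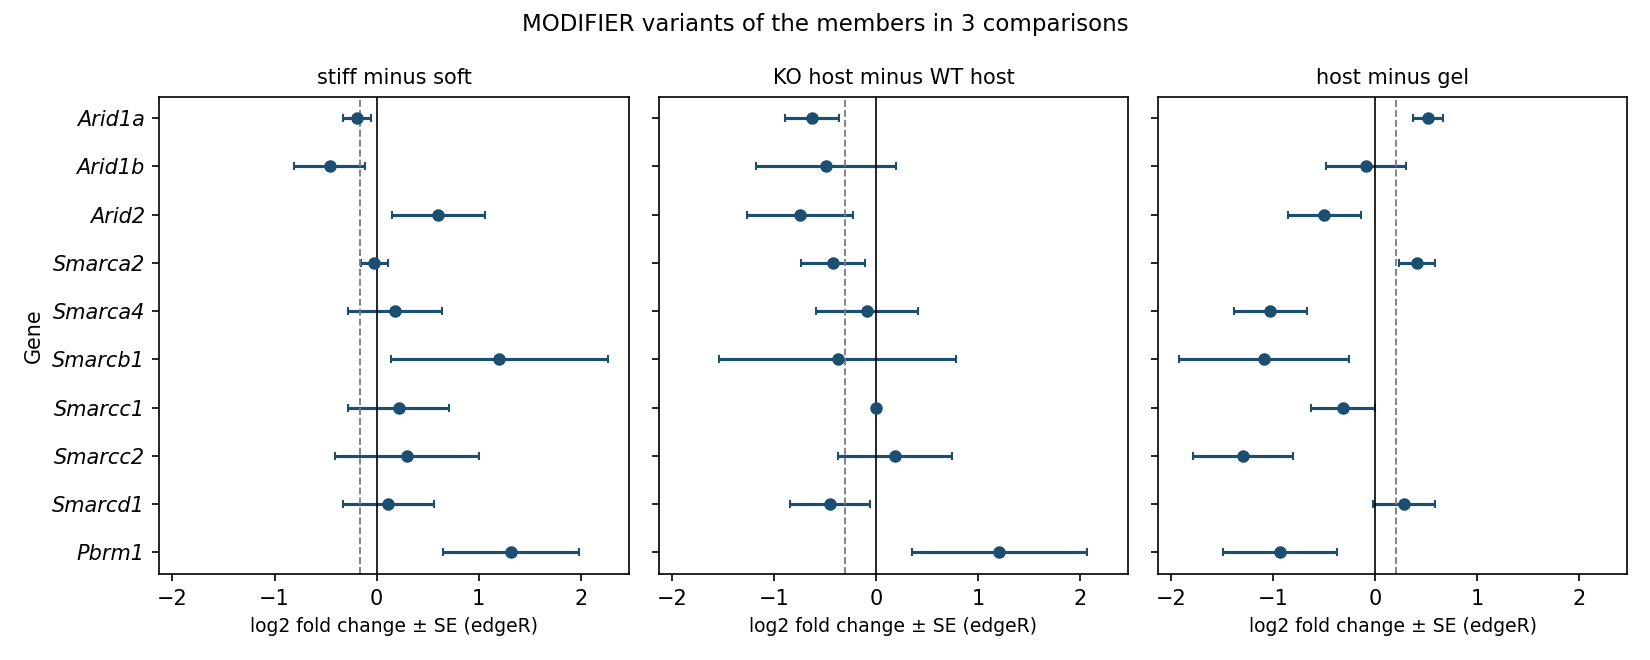
Points give the edgeR log2 fold change of MODIFIER variants for each member (vertical axis) in 3 comparisons, with bars of 1 SE (no bar where the fold change is 0) and a dashed line at the median over all genes tested. Arid1a sits at -0.62 between KO and WT hosts and at 0.51 between host and gel tumours, while Smarca4, Smarcb1, Smarcc2 and Pbrm1 lie at -0.93 or below in the latter.

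One stiff tumour, A9, ran through these MODIFIER counts. It held the single highest count of the 12 tumours in Arid2 (10), Smarca4 (19), Smarcb1 (8), Smarcc1 (25), Smarcc2 (15) and Pbrm1 (25). In Arid1a (112) it was the lowest of all 12, and in Smarca2 (99) the lowest but B5 (84). Relative to each gene's median over the tumours, A9 stood at 5.56 times in Pbrm1, 5.33 times in Smarcb1 and 5.00 times in Smarcc2, against 0.752 times in Arid1a. Leaving out Arid1a and Smarca2, the other 8 members summed to 124 in A9 and to between 49 (B5) and 84 (B1) in the other 11 tumours, although A9 had one of the lowest totals over all genes, 335381.

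The same contrast was present across the exome. Of the genes with a single highest tumour, 7484 had a summed MODIFIER count within the range of those 8 members (24 to 223). A9 was the highest tumour in 21.4% of them, B1 in 21.5% and B6 in 15.0%. Among the 1211 genes with a sum above 1000, where Arid1a and Smarca2 fall, A9 was the highest in 0.165% and B1 in 61.4%. A9 was the highest in 6 of the 8 members, against 21.4% of the genes in that range, a difference that was not tested. The intron counts of Smarcc1 (25 in A9, 5 to 13 elsewhere) and Pbrm1 (24 in A9, 13 in B5, 0 to 7 elsewhere) made up nearly all of their excess.

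**Figure D4:**
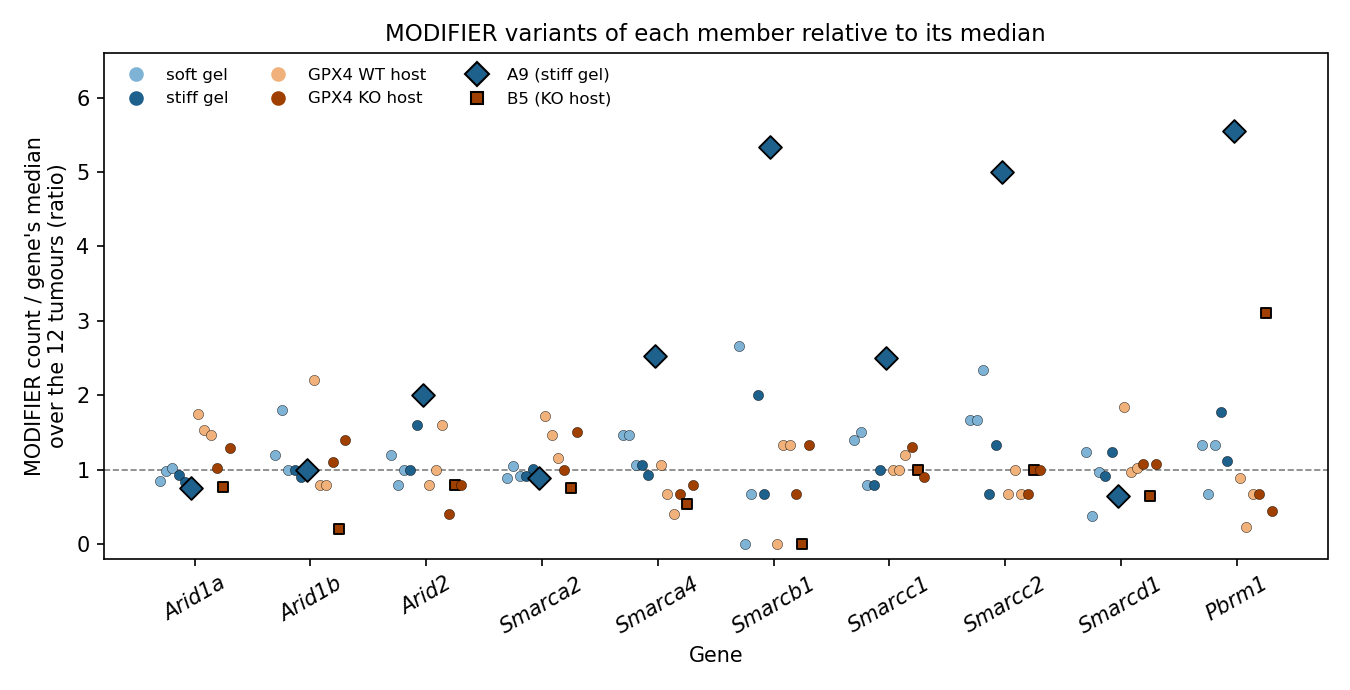
Each point is the MODIFIER count of a member in a tumour divided by that gene's median over the 12 tumours, coloured by group, with A9 as a diamond and B5 as a square. A9 is at 2.00 or above in 6 members and at 0.752 in Arid1a and 0.884 in Smarca2, while B5 is at 3.11 in Pbrm1.

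Reading another transcript changed the picture for a pair of members. Of the 26 or 27 protein-coding transcripts listed for Smarca2, at most 5 held a protein-altering variant in any tumour, and of the 5 listed for Smarcd1, 2 did so in each tumour that had one. With the median over transcripts both genes would be at 0 in every tumour. Arid1a kept its split between hosts with the median, at a log2 fold change of -1.19 (edgeR adjusted p = 1).

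The wider family was described through lists of 21 other SWI/SNF subunits and 18 ATPases of other remodelling families. Among the other subunits, 12 had a protein-altering variant in some tumour and 2 had one in all 12 tumours: Bicra, a subunit of the non-canonical GBAF form, with 5 to 12 per tumour, and Smarce1, the HMG-box subunit, with 1 to 4. The third by sum, Bcl11a, a zinc-finger protein found with BAF, had 7 in all. Every Smarce1 tumour held at least 1 frameshift and no missense change, whereas Bicra had 1 or 2 frameshifts and 3 to 11 missense changes. Bicra was highest in B2 with 12, as Arid1a was, but B1 and B3 had 6 each, within the range of the other tumours.

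Among the other ATPases, 16 of 18 had a protein-altering variant in some tumour and 6 had one in every tumour. The 3 with the highest sums were Chd8, a chromodomain helicase, with 6 to 14 per tumour, Ino80, the ATPase of the INO80 complex, with 5 to 11, and Chd4, the ATPase of the NuRD complex, with 5 to 9. Chd8 was highest in a KO host (B4, 14), Ino80 in a WT and a KO host (B2 and B6, 11 each), and Chd4 in a stiff tumour (A8, 9). Recurrence in all 12 tumours was thus found for 1 of 10 members, 2 of 21 other subunits and 6 of 18 other ATPases. These shares were not corrected for coding length.

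None of the listed genes passed in protein-altering variants in any of the 3 comparisons. In MODIFIER variants, 1 other subunit, Bcl11a (log2 fold change 0.78, edgeR adjusted p = 0.0497), and 1 other ATPase, Chd9 (1.02, edgeR adjusted p = 0.0228), were higher in host than in gel tumours, and no listed gene passed in the other comparisons. A count of 1 of 21 and 1 of 18 is near the 5.57% of all genes that passed. Chd9, a chromodomain helicase, had 100 to 149 in the gel tumours and 146 to 411 in the host tumours, which overlap only through B5 (146). The Bcl11a call was lost on leaving out any of 9 of the 12 tumours (A1, A2, A3, A8, A9, B1, B2, B3 or B6), and its edgeR adjusted p reached 0.292 with scaling to the totals. The Chd9 call was lost on leaving out A1, A3, A9 or B1, with an edgeR adjusted p of at most 0.0738 in any setting. Between KO and WT hosts the median log2 fold change of MODIFIER variants was -0.56 over the other subunits and -0.24 over the other ATPases, beside -0.40 over the members and -0.30 over all genes.

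The genes whose protein-altering counts were most like those of Arid1a over the 12 tumours were sought among 403 other genes with a sum of at least 60 and counts that varied. By Pearson's r of log2(count + 1), they were Tmem201 (0.77), Fer1l4 (0.76), Ubr1 (0.75), Ubxn4 (0.74) and Plekhm2 (0.74). The Tmem201 counts varied only between 5 and 6, so its r rests on steps of 1 variant. Fer1l4 was highest in B1 (21) and B2 (16), and Ubr1, a ubiquitin ligase, in B2 (13), B1 (11) and B3 (9). In B3 Fer1l4 had 10, as in A2. The choice of these genes fixes their likeness to Arid1a, and the counts of all genes in a tumour share its total. Without B1 and B2, the tumours farthest from the Arid1a median, r lay between -0.10 (Ubxn4) and 0.57 (Ubr1).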

How the data were processed

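Exomes of 12 tumours were analysed. The submitters' processing notes name GRCm39 as the build and list GATK, SAMtools 1.19.2 and BWA 2.2.1; variant filtering, or subtraction of the tails, is not given in the sources used here. Deposited by the authors were whole-number counts of variants per transcript, written by snpEff per the file headers. Per the labels, exons were captured with a SureSelectXT mouse kit and read as 150 bp pairs at a stated depth above 50x; the depth per gene is unknown, so no counting interval is given.

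The count of a gene was the maximum over its protein-coding transcripts for each impact class, with unlisted transcripts at 0. Rows with a blank biotype (8962 to 11049 per tumour) were left out. Counts per gene were tested with edgeR 4.0.16 in R 4.3.3 (quasi-likelihood, equal library sizes, summed count of at least 3, Benjamini-Hochberg over all genes tested, threshold 0.05). An approximate SE was derived from each fold change and its F statistic. DESeq2 1.42.0 was run as an alternative. The scripts were tested on simulated data, with 50 changed genes per fold. Between KO and WT hosts, 2-fold changes were recovered in 2% (protein-altering) and 0% (MODIFIER) of them. For 4-fold changes there, recovery was 18% and 16%, so changes of these sizes would mostly not pass. At 4-fold it was 58% and 60% between stiff and soft gels, and 96% and 98% between host and gel tumours. The changed genes all had higher mean counts than any member but Arid1a has in protein-altering variants. These rates therefore do not cover genes with low counts. Exact permutation tests of single Arid1a values used scipy 1.17.1. Between host and gel tumours the contrast took, for each experiment, the mean of its 2 groups on the log scale. A log2 fold change there can therefore differ from the ratio of the mean counts printed beside it.

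All 10 members, Arid1a by effect type, the 3 genes with the highest sums in each list plus any past the threshold, and the 5 genes most like Arid1a are named by rule. The members and lists were chosen with earlier results of these data known. No protein or GRCm39 sequence was used here, so none is printed, and GRCm38.p6 served only for gene names and order.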

Additional observations from a re-analysis of the deposited data

Results flagged for a closer look

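Among the 6 gel and the 6 host tumours, a member's count was picked out where 1 tumour lay apart from the nearest other by more than Dixon's critical share of the range for 6 tumours. Counts of 32 gene and experiment combinations were checked and 11 stood out. Chance gives about 1 in 20 for continuous values, a rate that does not hold for counts of 0 and 1.

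A9 had 25 MODIFIER variants of Pbrm1 where the next gel tumour had 8, and 19 of Smarca4 where the next had 11. B5 had 14 of Pbrm1 where the next host tumour had 4. B1 had 34 of Smarcd1 (next 20) and A2 had 18 of Arid1b (next 12).

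The other 6 rest on 1 variant, where any single differing tumour stands out by construction. A single protein-altering variant was listed against 0 in the other tumours of the experiment for Arid1b in A2 (1) and B6 (1), Smarca4 in B5 (1), Smarcc1 in B5 (1) and Smarcc2 in A9 (1), and Smarcd1 had 0 in A9 where the other gel tumours had 1.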

How the results depend on the processing

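No member passed the threshold in protein-altering variants under any setting tried. Which tumours were left out, how counts were scaled and which tool was used moved the counts of genes that passed; the cause was not tested beyond the settings named. In MODIFIER variants between stiff and soft gels, 0 genes passed, 53 with DESeq2, and 0 to 4 with 1 tumour left out. Between KO and WT hosts, 0 genes passed, 4 with a summed count of at least 10, 35 scaled to the totals, 26 with TMM, 19 with DESeq2, 24 with all 12 tumours in 1 fit, and 0 with any 1 tumour left out. Between host and gel tumours, 0 genes passed in protein-altering variants, 5 with DESeq2, and 0 to 3 with 1 tumour left out. In MODIFIER variants 1156 passed there, 724 scaled to the totals, 1831 with DESeq2, 114 to 2616 with 1 tumour left out, and 1809 without A9 and B5, a pair chosen after seeing the data. The members' summed difference between KO and WT hosts, -12.7, was 0.333 without Arid1a. It ran from -16.0 to -8.00 with 1 tumour left out, against -3.67 to -0.667 between stiff and soft gels and 1.53 to 6.33 between host and gel tumours.

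MODIFIER log2 fold changes of some members changed sign. Between stiff and soft gels, with scaling to the totals, Arid1a was 0.024 and Smarca2 0.19 (0.14 with TMM). With 1 tumour left out Smarca2 ran from -0.081 to 0.051, Smarca4 from -0.41 to 0.43, Smarcc1 from -0.45 to 0.50, Smarcc2 from -0.89 to 0.73 and Smarcd1 from -0.24 to 0.47. Between KO and WT hosts Smarca4 was 0.30 scaled and 0.23 with TMM, and left-out tumours moved it from -0.37 to 0.31, Arid1b from -0.95 to 0.17, Smarcb1 from -1.22 to 0.16 and Pbrm1 from -0.089 to 1.63. Between host and gel tumours, with scaling Smarca2 was -0.054 and Smarcd1 -0.18 (-0.0021 with TMM), left-out tumours moved Arid1b from -0.41 to 0.15 and Smarcc1 from -0.46 to 0.017, and without A9 and B5 they were 0.16 and 0.039. The protein-altering value of Smarcd1 there was -0.077 scaled, -0.066 to 0.44 with 1 tumour left out and -0.24 without A9 and B5. Read depth, which is unknown, limits all counts. No paired analysis was possible because the groups share no replicate numbers.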
